A study of Mus musculus with 28 samples.

Results

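Day-1 meiocyte-like cells derived from mouse embryonic stem cells with rescued Terc (RT 1dMeioLC) were compared with the same kind of cells derived from wild-type stem cells with long telomeres (LT 1dMeioLC), with 2 RNA-seq libraries in each group. The genes compared were all those with at least 1 TPM (transcripts per 1000000, a level already divided by transcript length) in at least 2 of these 4 libraries. They numbered 16860 of the 53564 gene symbols in the authors' deposited table, and 36704 stayed outside. Of the genes kept, 14034 reached 1 TPM in all 4 libraries, 1279 in exactly 3 and 1547 in exactly 2. The last class held 445 genes that reached it in both RT libraries and in no LT library, and 603 that did so in both LT libraries and in no RT library, so their entry already required a difference in level. The p-values of such genes are therefore no separate support for that difference. The gene nearest to the threshold on the inside had a second-highest value of 1.00044 TPM, and the nearest one outside had 0.99975 TPM.

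Per the labels, the strain was C57BL6, and RT, ST and LT cells came from embryonic stem cells (ESC). RT cells came from Terc-rescued ESC, ST cells from Terc-KO G4 ESC (generation 4 of the knockout of Terc, with short telomeres) and LT cells from WT ESC. The stem cells became epiblast-like cells in 2 days with KSR, bFGF and Activin A, and then PGC-like cells in 4 days with BMP4, SCF, EGF and LIF. The PGC-like cells were then aggregated for 1 day with gonadal somatic cells of female Actin-GFP mice at E12.5, in medium with 3 µM retinoic acid, vitamin C and the ROCK inhibitor Y27632, and the GFP-negative cells were sorted. Primordial germ cells of E10.5 embryos that passed through the same culture gave the PGC-1dMeioLC libraries. The labels do not say how Terc was restored, whether each line is 1 clone, or whether replicates came from separate cultures, so p-values measure the spread between these libraries, which may be technical. The series holds 28 samples in 14 groups, and 16 libraries in 8 groups entered the fit.

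Telomerase adds telomere repeats to chromosome ends with the reverse transcriptase Tert and the RNA template Terc, and stem cells without Terc lose telomere length over generations. Primordial germ cells (PGCs) are the embryonic precursors of eggs and sperm. In a female gonad, retinoic acid and BMP signals induce Stra8 and Meiosin-dependent meiotic genes, the axis of each chromosome is loaded with meiotic cohesins, and the synaptonemal complex later joins the paired chromosomes. The comparison asks how far cells whose Terc and telomeres were restored resemble cells that never lost them at the entry to meiosis.

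Terc was listed at 3.08 and 0.699 TPM in the RT libraries, at 0 in both ST libraries and in both PGC-1dMeioLC libraries, and at 2.35 and 5.39 TPM in the LT libraries (3:96414437-96414859 on mm10). Terc was thus listed above 0 in both RT libraries and both LT libraries and at 0 in both knockout libraries, as their labels say, but a listed 0 was not particular to the knockout. RT and LT levels overlapped, with a log2 fold change of -0.81 ± 0.40 (SE) on the log2(TPM + 1) scale and an adjusted p of 0.16 in limma, which became 0.029 without RT replicate 1. Tert had 1.18 and 0.826 TPM in RT, 2.30 and 2.25 in ST and 0.982 and 1.36 in LT libraries, and did not pass the test between RT and LT (adjusted p = 0.64).

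Nuclear protein-coding genes took 60.6% and 60.8% of TPM in RT libraries and 60.5% and 60.7% in LT libraries, so their shares overlapped. Other shares did not. Records of miRNA genes took 14.0% and 14.1% in RT libraries and 11.8% and 12% in LT libraries. The ribosomal RNAs of mitochondria took 1.18% and 1.16% in RT libraries and 1.84% and 1.78% in LT libraries. The 3 genes of an rRNA-like locus took 1.31% and 1.44% in RT libraries, 9.22% and 9.13% in ST libraries, 5.30% and 5.03% in PGC-1dMeioLC libraries and 1.91% and 1.89% in LT libraries. The part of these shares in the results was not tested. Between replicates of a group the log2(TPM + 1) values had a Pearson r of 0.973 to 0.988 across genes, which are not independent replicates. The first principal component of the 8 libraries from meiotic culture held 39.5% of the variance and put RT at 4.24 and 5.20, ST at 60.9 and 57.3, PGC-1dMeioLC at -46.9 and -46.4 and LT at -16.5 and -17.7. On the second component (22.8%) RT lay at -39.6 and -39.8, ST at 25.8 and 21.9, PGC-1dMeioLC at 33.2 and 31.3 and LT at -15.7 and -17.1. RT libraries therefore lay between ST and LT on the first component and beyond LT on the second. The summed TPM of 7 germ cell markers (Dppa3, Ddx4, Dazl, Prdm1, Tfap2c, Nanos3 and Kit), all at or above 1 TPM in every library, was 700.3 and 667 in RT libraries, 171 and 177 in ST libraries, 994 and 1014 in PGC-1dMeioLC libraries and 988 and 946 in LT libraries. The RT sums lay below both LT sums and above both ST sums. Most of the RT, ST and LT sums came from Dppa3 and Dazl, so the sums say little about the other markers. Prdm1 was lower in RT than in ST libraries, and Tfap2c, Nanos3 and Kit did not pass the test between RT and LT.

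Of the 16860 genes, 4233 (25.1%) differed between RT and LT at an adjusted p under 0.05 (limma's moderated test on log2(TPM + 1) with Benjamini-Hochberg adjustment). Of these, 1372 (8.14% of all genes tested) were higher and 2861 (17.0%) were lower in RT. Changes were mostly small: 422 were at least 2-fold higher, 430 at least 2-fold lower, and 2187 calls lay within 1.5-fold. Values after ± are limma's SE. The median log2 fold change of all genes was -0.10. Higher genes were 32.4% of calls, and 47.0% (1970 higher, 2219 lower) after quantile normalization, which put the median at -0.02. In the same fit 6686 genes (39.7%) differed between RT and ST, 6943 (41.2%) between ST and LT, and 6572 (39.0%) between RT and PGC-1dMeioLC. These comparisons share groups and are therefore not independent.

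**Figure D1:**
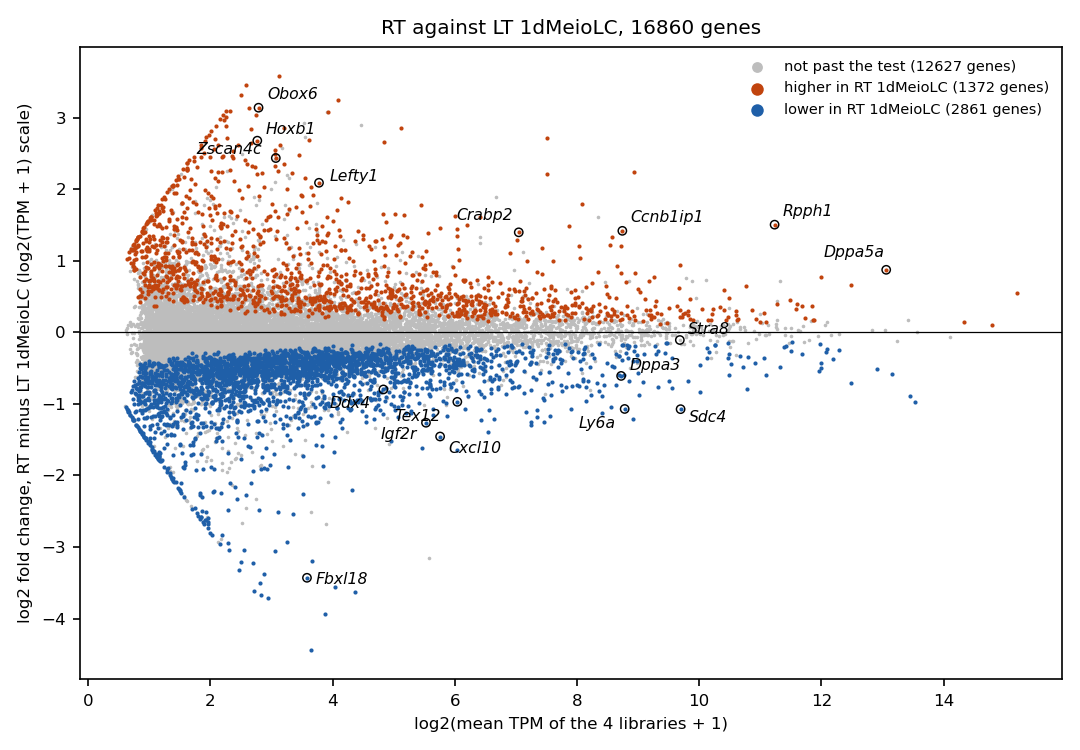
Each point is 1 of 16860 genes, with log2(mean TPM of the 4 RT and LT libraries + 1) on the horizontal axis and the log2 fold change, RT minus LT, on the vertical axis. The 1372 genes higher in RT are orange, the 2861 lower are blue and the rest are grey, and Obox6 at 3.14 and Fbxl18 at -3.43 are among the largest changes.

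Early and late germ cell genes differed in their counts. Of 28 measured early PGC genes, 8 were higher (28.6%, against 8.14% of all genes tested) and 11 lower (39.3%, against 17.0%), with a median log2 fold change of -0.24 (-0.10 over all genes). Of 24 measured late germ cell genes, 12 were lower (50.0%) and 2 higher (8.33%), with a median of -0.51, and the same list had a median of -1.47 in ST minus LT. The 2 higher genes were Tex19.1 and Rpl10l. Tex19.1, at 0.34 with an adjusted p of 0.042, lost its call in 10 of 15 alternatives, with 0.073 to 0.19 without any 1 of the 4 libraries, so that 1 higher gene was left in each of those fits. In bulk RNA, fewer germ cells and less of a transcript per germ cell cannot be told apart.

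Among the PGC factors, Dppa3, a maternal and germ cell factor that guards DNA methylation, had 347 and 321 TPM in RT, 27.6 and 29.6 in ST, 423 and 425 in PGC-1dMeioLC and 524 and 495 in LT libraries. RT was below LT by 0.61 on the log2 scale (adjusted p = 0.00029) and above ST by 3.50 (adjusted p = 5.2e-10). Prdm1, the repressor that specifies PGCs, had 1.78 and 1.43 TPM in RT and 3.91 and 3.45 in LT libraries (log2 fold change -0.85 ± 0.11, adjusted p = 0.00068), and its ST libraries, at 2.92 and 3.10 TPM, lay above RT. Cxcr4, the chemokine receptor that guides migrating PGCs, was the list's largest decrease, with 2.74 and 2.62 TPM in RT against 8.98 and 11.7 in LT libraries (-1.61 ± 0.20, adjusted p = 0.00036). The reproductive homeobox genes Rhox5 (-0.69 ± 0.09) and Rhox9 (-0.89 ± 0.13) were lower too. The 8 higher genes became 5 without LT replicate 2 and 4 in the 4 libraries alone. Prdm14, Tfap2c, Nanos3 and Kit did not pass the test, with log2 fold changes of -0.24, -0.25, 0.25 and -0.16.

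Within the late germ cell list, Dazl, an RNA-binding protein that licenses germ cells for gametogenesis, had 252 and 241 TPM in RT, 80.6 and 88.0 in ST and 349.6 and 339 in LT libraries (RT minus LT -0.48 ± 0.09, adjusted p = 0.0038). Ddx4, the germ granule helicase, had 17.9 and 21.8 TPM in RT, 5.98 and 5.84 in ST and 37.4 and 32.9 in LT libraries (-0.80 ± 0.19, adjusted p = 0.012). In both genes the RT libraries stood between ST and LT with no overlap. Mov10l1, the helicase of the piRNA pathway, was at 7.54 and 7.57 TPM in RT, 1.26 and 1.89 in ST and 16 and 16 in LT libraries (-1.0 ± 0.14, adjusted p = 0.00086). The germline transcription factor Sohlh1 was at 2.02 and 2.52 TPM in RT libraries, listed at 0 in both ST libraries and at 5.6 and 5.81 in LT libraries (-1.04 ± 0.15, adjusted p = 0.00086). Tex15, needed for transposon silencing in male germ cells, changed by -0.86 ± 0.11 (adjusted p = 0.00062), the Piwi gene Piwil2 by -0.80 ± 0.17 (0.0071) and Figla, an oocyte transcription factor, by -1.15 ± 0.33 (0.027). Ddx4 lost its call without RT replicate 1 (adjusted p = 0.079) or LT replicate 1 (0.077), and Piwil2 without RT replicate 2 (0.053) or LT replicate 2 (0.066). Figla lost it without any 1 of the 4 libraries (0.074 to 0.13), at a pseudocount of 0.1 (0.15) and without the filter on low values (0.061). The list's count of 12 lower genes became 7 without RT replicate 2 or LT replicate 2, and 10 and 9 without RT replicate 1 and LT replicate 1.

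Meiotic entry genes did not move as a block. Stra8, the gatekeeper of meiotic entry, had 799.8 and 782 TPM in RT, 336 and 323 in ST, 747 and 744 in PGC-1dMeioLC and 845 and 858 in LT libraries. Its RT minus LT log2 fold change was -0.11 ± 0.17 (adjusted p = 0.69), while RT minus ST was 1.26 ± 0.17 (adjusted p = 0.00031). Of 17 measured meiotic entry genes 4 were higher (23.5%, against 8.14% of all genes tested) and 5 lower (29.4%, against 17.0%). The median was -0.25. The higher ones included Id1 and Id2, targets of BMP signalling, at 0.99 ± 0.08 and 0.57 ± 0.08. Id1 had 193 and 192 TPM in RT and 97.7 and 95.2 in LT libraries (adjusted p = 2.4e-05). Among the lower ones, Zglp1, a transcription factor of the oogenic programme downstream of BMP, had 16 and 10.9 TPM in RT and 28.0 and 26.0 in LT libraries (-0.98 ± 0.26, adjusted p = 0.019). The ligand Bmp2 was at -0.63 ± 0.13 (adjusted p = 0.0071). Zglp1 lost its call without RT replicate 2 (adjusted p = 0.13), LT replicate 1 (0.089) or LT replicate 2 (0.075) and with the spread taken from the meiotic culture groups (0.07), and Bmp2 at a pseudocount of 0.1 (0.07). The 5 lower genes became 1 without RT replicate 2 or LT replicate 1, 2 without LT replicate 2 or at a pseudocount of 0.1, and 3 in a fit of the 4 libraries alone.

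Genes of the chromosome axis and synaptonemal complex were lower in RT wherever they passed the test: 7 of 15 measured genes fell (46.7%, against 17.0% of all genes tested) and 0 rose, with a median of -0.47 (-1.09 in ST minus LT). No gene of this list was higher at an unadjusted p under 0.05 either (0 higher, 9 lower; limma). Tex12, a central element protein, had 43.1 and 44.0 TPM in RT, 26.8 and 20.8 in ST and 88.9 and 83.7 in LT libraries (-0.97 ± 0.13, adjusted p = 0.00058). Syce2, its partner in the central element, had 366 and 343 TPM in RT, 202 and 222 in ST and 559 and 574 in LT libraries (-0.68 ± 0.06, adjusted p = 5.8e-05). Smc1b, a meiotic cohesin, stood at 33.2 and 32.3 TPM in RT, 17.8 and 18.1 in ST and 59.4 and 61.8 in LT libraries (-0.87 ± 0.11, adjusted p = 0.00055). RT libraries lay between ST and LT for all 3 genes. The transverse filament gene Sycp1 was lower (-0.53 ± 0.13, adjusted p = 0.014), while the axis genes Sycp3 (-0.52, adjusted p = 0.072), Hormad1 (-0.30, 0.2) and the cohesin Rec8 (-0.23, 0.19) did not pass the test. Sycp1 lost its call without RT replicate 2 (adjusted p = 0.1), LT replicate 1 (0.076) or LT replicate 2 (0.053) and in a fit of the 4 libraries alone (0.063), and Tex12 at a pseudocount of 0.1 (0.12). Sycp3 passed at a pseudocount of 5 (0.021) and with the spread of the meiotic culture groups (0.023), and Hormad1 in the 4 libraries alone (0.04). The 7 lower genes became 4 without RT replicate 2, LT replicate 1 or LT replicate 2, and 3 at a pseudocount of 0.1.

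**Figure D2:**
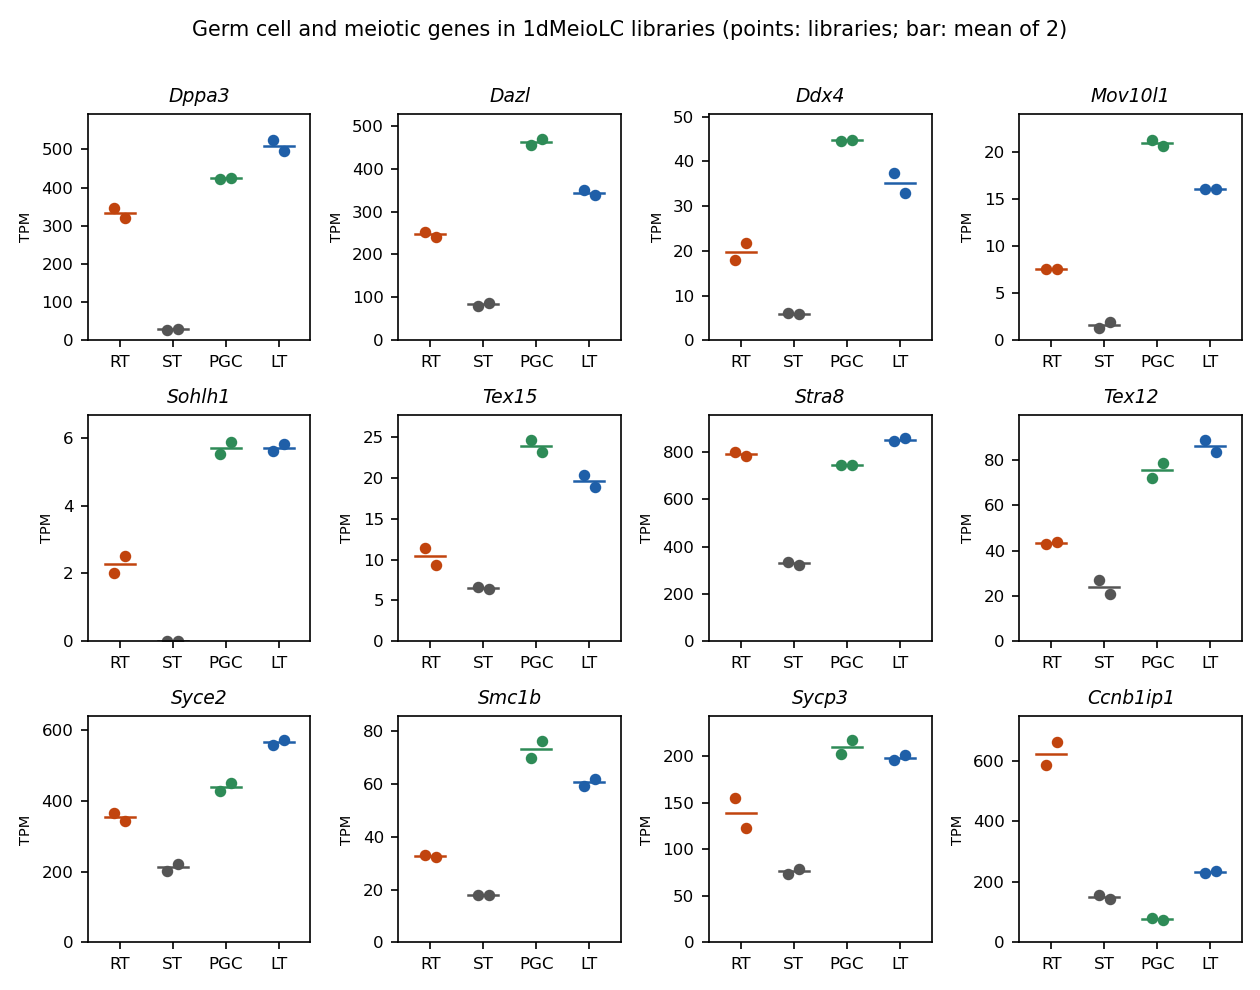
TPM (vertical axis, from 0) of 12 germ cell and meiotic genes in each library, with 2 points per group in the order RT, ST, PGC-1dMeioLC and LT 1dMeioLC and a bar at the mean. RT points lie between ST and LT for Dppa3, Dazl, Ddx4 and Tex12, next to LT for Stra8, and above every other group for Ccnb1ip1.

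The 250 bases upstream of the start of Tex12 and of Ddx4 are shown because both genes fell and both windows hold 2 motifs found before germline gene starts, an E-box (CACGTG) and an E2F6-type site (GGCGGGAA). They are RefSeq sequences of GRCm38.p6, printed along each gene's own strand, the minus strand for both, with the motifs in capitals. Of 16 promoters of late germ cell and synaptonemal genes that were lower in RT, out of 19 such genes, 11 (68.8%) held the E-box on either strand, 3 (18.8%) held the E2F6-type site and 4 (25.0%) held the STRA8 motif CNCCTCAG. Of the 10757 genes kept that had a promoter in the RefSeq table, 9.54% held the E-box, 4.05% the E2F6-type site and 8.61% the STRA8 motif. Among all genes called lower the E-box share was 9.77%, and among all called higher it was 8.06%. The E-box was also in 4 of the 7 promoters found for lower sterol synthesis genes (57.1%). A high share was thus not particular to the germ cell and synaptonemal genes. CACGTG reads the same on both strands, and a match does not show that a factor binds there. Genes of these lists that were not lower were not counted apart, so a link of the motifs with the decrease was not tested.
Tex12 (chr9:50561269-50561518): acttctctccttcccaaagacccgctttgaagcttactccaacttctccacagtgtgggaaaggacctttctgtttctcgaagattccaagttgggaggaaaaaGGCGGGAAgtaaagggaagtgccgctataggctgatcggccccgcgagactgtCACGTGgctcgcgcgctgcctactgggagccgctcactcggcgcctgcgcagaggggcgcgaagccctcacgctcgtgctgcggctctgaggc
Ddx4 (chr13:112652311-112652560): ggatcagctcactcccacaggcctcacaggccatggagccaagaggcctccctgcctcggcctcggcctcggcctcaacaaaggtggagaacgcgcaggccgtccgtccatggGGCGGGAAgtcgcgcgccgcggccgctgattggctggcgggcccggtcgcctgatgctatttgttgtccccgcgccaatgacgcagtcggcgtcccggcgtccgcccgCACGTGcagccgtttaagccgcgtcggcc

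Recombination genes were split. Of 21 measured genes 4 were higher and 5 lower, with a median of -0.07. Ccnb1ip1, a ubiquitin ligase needed for crossovers, had 585 and 661 TPM in RT, 155 and 144 in ST, 81.5 and 74.0 in PGC-1dMeioLC and 229 and 235 in LT libraries. It was higher in RT than in LT (1.42 ± 0.12, adjusted p = 4.1e-05) and than in ST (2.05 ± 0.12, adjusted p = 2.5e-06). Prdm9, the methyltransferase that places recombination hotspots, had 4.84 and 5.15 TPM in RT, 10.9 and 12.2 in ST and 10.7 and 11.7 in LT libraries (-1.03 ± 0.17, adjusted p = 0.002; 0.053 at a pseudocount of 0.1). The strand exchange gene Dmc1 was at 11.5 and 10.2 TPM in RT and 12.2 and 12.6 in LT libraries (-0.18, adjusted p = 0.49). Spo11, which cuts the DNA to start recombination, was below the filter, with 0.665 and 0.302 TPM in RT libraries and 0.597 and 0.914 TPM in LT libraries. Of the measured genes for meiotic telomere tethering 0.00% rose and 10.0% fell, against 8.14% and 17.0% of all genes tested. Of 10 measured genes that tether telomeres to the nuclear envelope in meiosis, only Lmna passed, at -0.47 ± 0.10 (adjusted p = 0.0086), and it did not pass without RT replicate 1 (0.056), without LT replicate 2 (0.069) or in the 4 libraries alone (0.08). The 4 higher recombination genes became 2 without RT replicate 1 or LT replicate 1. The 5 lower became 1 at a filter of 5 TPM and 3 at a pseudocount of 0.1, in the 4 libraries alone or with the spread of the meiotic culture groups.

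Several well-known targets of retinoic acid were higher in RT libraries. Hoxb1, a direct target, had 11.2 and 10.3 TPM in RT, 7.76 and 5.94 in ST and 1.16 and 0.561 in LT libraries (RT minus LT 2.68 ± 0.26, adjusted p = 9.8e-05). Crabp2, the carrier that brings retinoic acid to the nucleus, had 192 and 189 TPM in RT, 142 and 151 in ST and 67.1 and 76.6 in LT libraries (1.40 ± 0.14, adjusted p = 0.0001). For both genes the ST libraries lay between RT and LT. Cyp26a1, the enzyme that breaks retinoic acid down, differed from that pattern, with 158 and 166 TPM in RT, 76.9 and 78.6 in ST and 77.4 and 72.4 in LT libraries (1.10 ± 0.23, adjusted p = 0.0068; 0.25 at a pseudocount of 0.1). Aldh1a3, an enzyme that makes retinoic acid, was lower (-0.94 ± 0.18, adjusted p = 0.0045; 0.076 in the 4 libraries alone). Over the list of 21 measured genes, 6 rose (28.6%) and 4 fell (2 fell in the 4 libraries alone), with a median of -0.12 (-0.10 over all genes). The shares over all genes tested were 8.14% higher and 17.0% lower. For the measured Hox and Cdx genes the shares were 13.8% higher and 17.2% lower. Of 29 measured Hox and Cdx genes 4 were higher (2 without RT replicate 2) and 5 lower; the 5 lower genes became 0 to 3 when 1 library was left out, with 0 without LT replicate 2.

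Cyp26a1 is shown with its promoter because a retinoic acid element of the DR5 kind, searched after the values were seen as a pair of AGNTCA with any 5 bases between them on either strand, lies just upstream of its start. The sequence is the plus strand of GRCm38.p6 from RefSeq, with the match, on the minus strand, in capitals. This motif was in 11 of the 10757 promoters (0.102%), and in 1 of the 3 promoters found for the 6 retinoic acid genes that rose.
Cyp26a1 (chr19:37697558-37697807): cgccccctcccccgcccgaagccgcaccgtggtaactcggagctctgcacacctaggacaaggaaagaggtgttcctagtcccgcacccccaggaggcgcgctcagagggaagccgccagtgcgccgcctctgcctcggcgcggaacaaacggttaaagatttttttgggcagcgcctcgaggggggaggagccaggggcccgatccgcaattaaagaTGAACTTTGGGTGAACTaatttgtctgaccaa

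Nodal, its Lefty inhibitors and the pluripotency genes Nanog, Dppa5a and Fgf4 were higher in RT. The naive pluripotency list was split, with 6 genes higher, 4 lower and a median of 0.02. Dppa3, at -0.61, was among the 4 lower ones. Of 15 measured primed pluripotency genes 6 rose (40.0%) and 2 fell (13.3%), with a median of 0.00. Of 23 BMP, TGFb and Nodal genes 8 rose (34.8%) and 5 fell (21.7%), with a median of 0.17. Over all genes tested 8.14% rose and 17.0% fell. Nodal, the ligand, had 10.1 and 8.05 TPM in RT, 13.4 and 11.6 in ST and 3.16 and 2.80 in LT libraries (1.33 ± 0.20, adjusted p = 0.0011). Its feedback inhibitor Lefty1 had 17.6 and 24.7 TPM in RT, 25.5 and 23.9 in ST and 3.14 and 5.37 in LT libraries (2.09 ± 0.21, adjusted p = 0.00011). Lefty2 had 8.18 and 7.82 TPM in RT, 2.69 and 3.15 in ST and 1.53 and 1.37 in LT libraries (1.88 ± 0.13, adjusted p = 1.2e-05). Both inhibitors were listed at or below 1 TPM in the mean of the PGC-1dMeioLC libraries. The related ligand Gdf3 changed by 1.15 ± 0.10 and the co-receptor Tdgf1 by 0.68 ± 0.09, whereas Fst, which binds activins, fell by 0.91. BMP ligands went the other way from the Id genes: Bmp2 was lower, as given above, and Bmp4 was at -0.60 ± 0.15 (adjusted p = 0.016), a call that ended without RT replicate 2 (0.12), without LT replicate 1 (0.096) and in the 4 libraries alone (0.1). The 5 lower genes of the signalling list became 2 without LT replicate 1 or in the 4 libraries alone, and 3 without RT replicate 2, at a pseudocount of 0.1 or with the spread of the meiotic culture groups.

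The pluripotency factor Nanog had 49.2 and 49.3 TPM in RT, 76.5 and 71.6 in ST and 29.6 and 26.3 in LT libraries (0.80 ± 0.10, adjusted p = 0.00039). Dppa5a, an RNA-binding protein of pluripotent cells and one of the most abundant transcripts here, had 11543 and 10582 TPM in RT, 10162 and 9874 in ST and 5899 and 6155 in LT libraries (0.87 ± 0.09, adjusted p = 0.00012). Its near-identical copies make that level uncertain. Fgf4 was at 0.97 ± 0.11 and Dnmt3l, the cofactor of the de novo DNA methyltransferases, at 1.77 ± 0.28, with 7.41 and 3.76 TPM in RT and 0.950 and 0.763 in LT libraries. Dnmt3l entered the comparison through the RT libraries alone, which already required a difference. Pou5f1 and Sox2 passed by a small margin, at 0.56 ± 0.17 (adjusted p = 0.039) and 0.34 ± 0.10 (0.027). Pou5f1 did not pass without RT replicate 2 (0.24) or LT replicate 2 (0.25), and Sox2 did not pass without RT replicate 1 (0.15), LT replicate 1 (0.13) or LT replicate 2 (0.067). Both missed it in the 4 libraries alone (0.17 and 0.094) and with the spread of the meiotic culture groups (0.13 and 0.1). Pou5f1 also missed it under the other filters (0.05 and 0.081) and at a pseudocount of 5 (0.1). Of 20 measured naive pluripotency genes 6 rose (3 in the 4 libraries alone) and 4 fell (1 without RT replicate 2 or LT replicate 2, and 2 without LT replicate 1). The 2 lower primed genes became 1 without RT replicate 1 or RT replicate 2 and 0 without LT replicate 1 or LT replicate 2, and the 6 higher became 3 at a filter of 5 TPM.

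**Figure D3:**
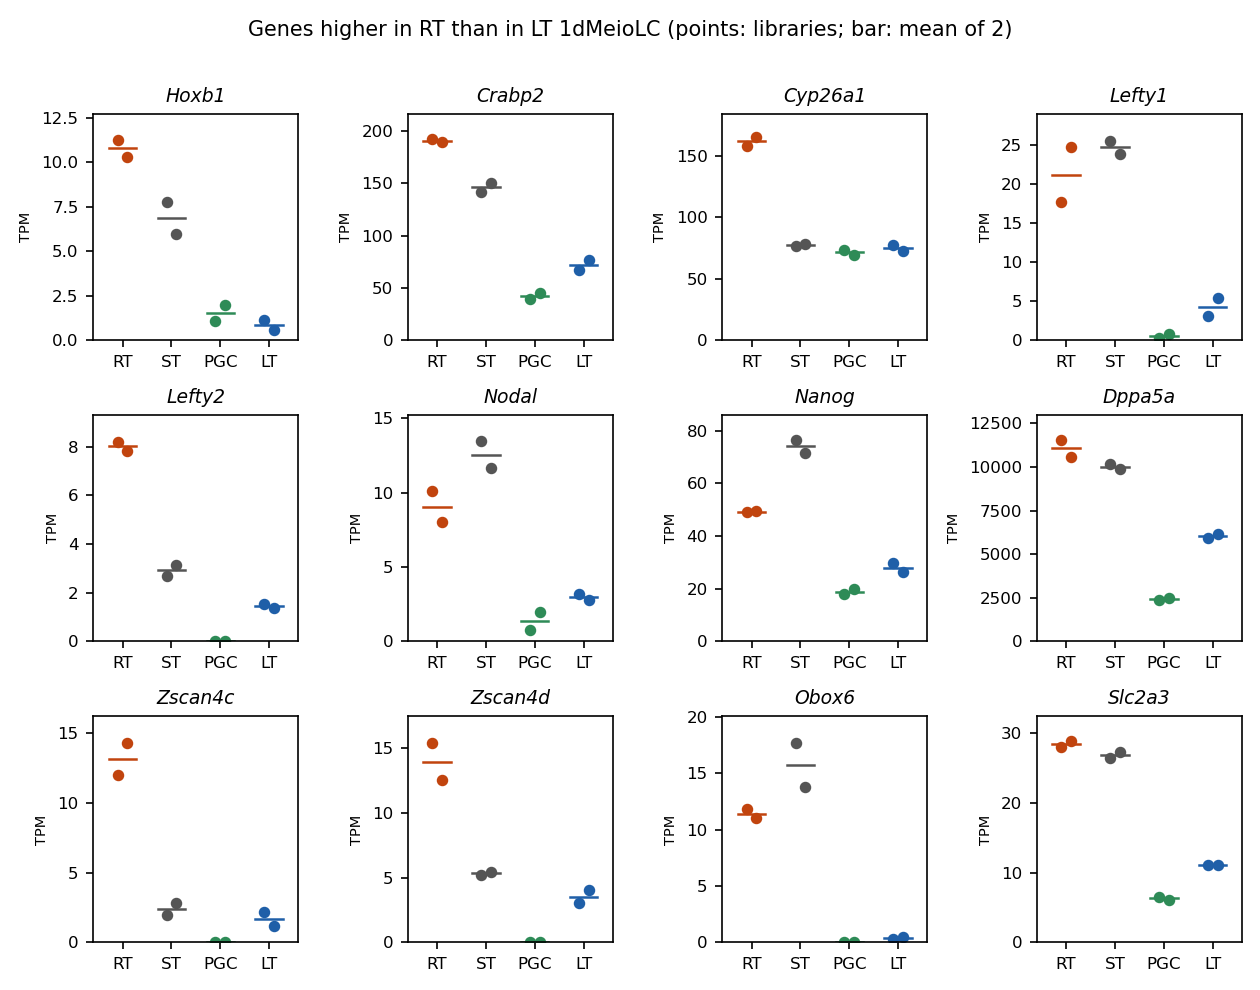
TPM (vertical axis, from 0) of 12 genes that were higher in RT than in LT, with 2 points per group in the order RT, ST, PGC-1dMeioLC and LT 1dMeioLC and a bar at the mean. For Hoxb1, Crabp2, Lefty1, Lefty2, Nodal, Nanog, Dppa5a, Obox6 and Slc2a3 the ST points also lie above the LT points, whereas for Cyp26a1 and Zscan4c the ST and LT points overlap.

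Zscan4 genes, which are switched on in cleavage-stage embryos and in rare stem cells that lengthen their telomeres, were higher in RT. All 7 measured members of the family rose (2 others, Zscan4b and Zscan4e, were below the filter), with a median log2 fold change of 1.63 in RT minus LT and -0.12 in ST minus LT; this list was assembled after the values were seen. Zscan4c had 12 and 14.3 TPM in RT, 1.93 and 2.84 in ST and 2.17 and 1.15 in LT libraries (2.44 ± 0.21, adjusted p = 4.6e-05) and the PGC-1dMeioLC libraries both showed 0. Zscan4d had 15.4 and 12 TPM in RT, 5.23 and 5.43 in ST and 3.00 and 4.01 in LT libraries (1.73 ± 0.25, adjusted p = 0.0011). Both RT libraries lay above every ST and LT library for these 2 genes. The 7 members lie on chromosome 7 (from Zscan4a at 10794242 to Zscan4-ps3 at 11614112, mm10). They are near-identical copies that the authors' counting could have split, so how the sum is shared among them is uncertain. At a pseudocount of 0.1, 4 of the 7 passed. On the telomerase and shelterin list, which also holds Zscan4 genes, 21.7% of those measured rose and 13.0% fell, against 8.14% and 17.0% of all genes tested. Among the 5 that rose were Zscan4c, Zscan4d and Zscan4f. The higher share is therefore no separate result on telomerase and shelterin genes. Of the 23 measured telomerase and shelterin genes, which include 3 of these Zscan4 genes, 5 rose and 3 fell; 8 rose after quantile normalization, and the 3 lower became 1 without LT replicate 1 and 0 without LT replicate 2. Terf2ip, the shelterin protein Rap1, was among those that fell, at -0.58 ± 0.12 (adjusted p = 0.0079; 0.071 without LT replicate 2 and 0.052 in the 4 libraries alone).

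Interferon-stimulated genes were mostly lower in RT: 23 of 33 fell (69.7%, against 17.0% of all genes tested) and 2 rose, Bst2 and Ifi27, with a median of -0.57. The same list had a median of 0.03 in ST minus LT. Cxcl10, an interferon-induced chemokine, had 27.2 and 28.8 TPM in RT, 112 and 102 in ST, 14.0 and 13.3 in PGC-1dMeioLC and 77.7 and 79.1 in LT libraries (RT minus LT -1.46 ± 0.11, adjusted p = 1.9e-05). Ifit1, which binds foreign RNA ends, had 24.9 and 22.7 TPM in RT, 63.1 and 62.1 in ST and 52.5 and 51.5 in LT libraries (-1.10 ± 0.10, adjusted p = 5.8e-05). Both RT libraries were below every ST and LT library for these genes. Ddx58, the RNA sensor RIG-I, was at -1.04 ± 0.12 (adjusted p = 0.00031), Oasl1 at -1.04 ± 0.17 (0.0021) and Ifit3 at -1.33 ± 0.31 (0.012). Bst2, the virus-tethering membrane protein tetherin, went the other way, with 93.8 and 88.4 TPM in RT, 58.0 and 59.2 in ST and 37.8 and 42.6 in LT libraries (1.16 ± 0.09, adjusted p = 2.2e-05), and Ifi27 changed by 0.56 ± 0.08. In a list of guanylate-binding Gbp and Ly6 surface genes assembled after the values were seen, 11 of 15 fell (73.3%) and 0 rose (1 at an unadjusted p under 0.05 in limma). Ly6a, the stem cell antigen Sca-1, had 288 and 278 TPM in RT and 600.3 and 589.6 in LT libraries (-1.07 ± 0.15, adjusted p = 0.00078). The 23 lower interferon genes became 15 without RT replicate 1, LT replicate 1 or LT replicate 2, 16 without RT replicate 2, 14 at a pseudocount of 0.1, and the 11 of the Gbp and Ly6 list became 6 to 8 without 1 library. Oasl1 lost its call in the 4 libraries alone (adjusted p = 0.052), and Ifit3 without RT replicate 1 (0.055), RT replicate 2 (0.053) or LT replicate 2 (0.072) and with the spread of the meiotic culture groups (0.054).

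The upstream 250 bases of 3 genes that fell and of Bst2, which rose, are shown because all 4 hold the interferon-stimulated response element searched as a pair of GAAA with any 2 bases between them on either strand. The element was thus in front of genes of both directions. They are RefSeq sequences of GRCm38.p6 along each gene's own strand, the plus strand for Ifit1 and Ifit3 and the minus strand for Cxcl10 and Bst2, with the matches in capitals (a pair of TTTC where the match is on the opposite strand, and joined where 2 overlap). The element was in 6 of the 20 promoters found for the 23 lower interferon genes (30.0%) and in 3.17% of all 10757. Interferon genes that were not lower were not counted apart, so a link of the element with the decrease was not tested.
Ifit1 (chr19:34640639-34640888): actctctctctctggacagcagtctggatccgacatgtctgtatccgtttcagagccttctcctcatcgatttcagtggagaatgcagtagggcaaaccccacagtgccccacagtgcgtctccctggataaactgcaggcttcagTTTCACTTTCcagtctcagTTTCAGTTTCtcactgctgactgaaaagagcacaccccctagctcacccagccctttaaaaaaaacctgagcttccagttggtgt
Ifit3 (chr19:34583279-34583528): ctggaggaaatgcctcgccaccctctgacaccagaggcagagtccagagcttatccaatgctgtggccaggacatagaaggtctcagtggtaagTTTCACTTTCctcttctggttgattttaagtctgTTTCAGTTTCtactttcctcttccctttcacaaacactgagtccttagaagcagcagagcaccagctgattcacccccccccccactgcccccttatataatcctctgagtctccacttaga
Cxcl10 (chr5:92348890-92349139): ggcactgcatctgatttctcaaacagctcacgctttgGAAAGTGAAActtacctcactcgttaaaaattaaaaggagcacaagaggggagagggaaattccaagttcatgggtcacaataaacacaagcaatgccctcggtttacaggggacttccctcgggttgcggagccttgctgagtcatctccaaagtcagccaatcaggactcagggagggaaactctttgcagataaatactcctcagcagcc
Bst2 (chr8:71537473-71537722): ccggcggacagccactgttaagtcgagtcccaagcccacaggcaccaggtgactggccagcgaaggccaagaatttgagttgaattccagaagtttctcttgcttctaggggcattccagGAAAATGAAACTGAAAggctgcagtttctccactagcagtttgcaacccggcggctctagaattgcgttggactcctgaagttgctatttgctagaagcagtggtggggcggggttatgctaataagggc

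Of 27 measured sterol synthesis and lipid genes 13 fell (48.1%, against 17.0% of all genes tested) and 2 rose (7.41%, against 8.14%; Ebp and Pmvk), with a median of -0.32 in RT minus LT and 0.26 in ST minus LT. Hmgcs1, an early enzyme of the pathway, had 47.2 and 43.7 TPM in RT, 78.8 and 74.6 in ST and 73.8 and 68.9 in LT libraries (-0.64 ± 0.08, adjusted p = 0.0005). Both RT libraries were below every ST and LT library for Hmgcs1. Sc5d, of the last steps of the pathway, was at -0.89 ± 0.10 (adjusted p = 0.00028), Stard4, which moves sterols between membranes, at -0.70 ± 0.14 (0.0065) and Dhcr7 at -0.57 ± 0.11 (0.0058; 0.055 without LT replicate 2 and 0.057 in the 4 libraries alone). Ebp, the sterol isomerase, was higher, with 24.4 and 28.8 TPM in RT, 29.3 and 32.0 in ST and 15.1 and 15.9 in LT libraries (0.74 ± 0.11, adjusted p = 0.0014). Pmvk, a kinase of the mevalonate pathway, was at 0.56 (adjusted p = 0.016) and lost its call without RT replicate 1 (0.074), RT replicate 2 (0.056) or LT replicate 2 (0.13) and in the 4 libraries alone (0.08), which left 1 higher gene. The 13 lower genes became 7 without LT replicate 1 or LT replicate 2, and 9 and 10 without RT replicate 2 and RT replicate 1. They became 8 after quantile normalization or with the spread of the meiotic culture groups, 7 without the filter on low values and 6 in the 4 libraries alone.

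Hmgcs1 is shown with its promoter because it was 1 of 7 lower sterol genes with a promoter in the table and the 1 that held the sterol element TCACNCCAC. This motif was searched on both strands after the values were seen and was in 1.19% of all 10757 promoters. The sequence is the plus strand of GRCm38.p6 from RefSeq, with the element in capitals.
Hmgcs1 (chr13:119690101-119690350): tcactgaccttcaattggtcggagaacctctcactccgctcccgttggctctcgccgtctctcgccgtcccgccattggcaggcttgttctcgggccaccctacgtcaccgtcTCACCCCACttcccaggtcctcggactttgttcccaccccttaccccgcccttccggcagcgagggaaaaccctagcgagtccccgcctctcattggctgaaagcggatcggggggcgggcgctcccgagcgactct

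**Figure D4:**
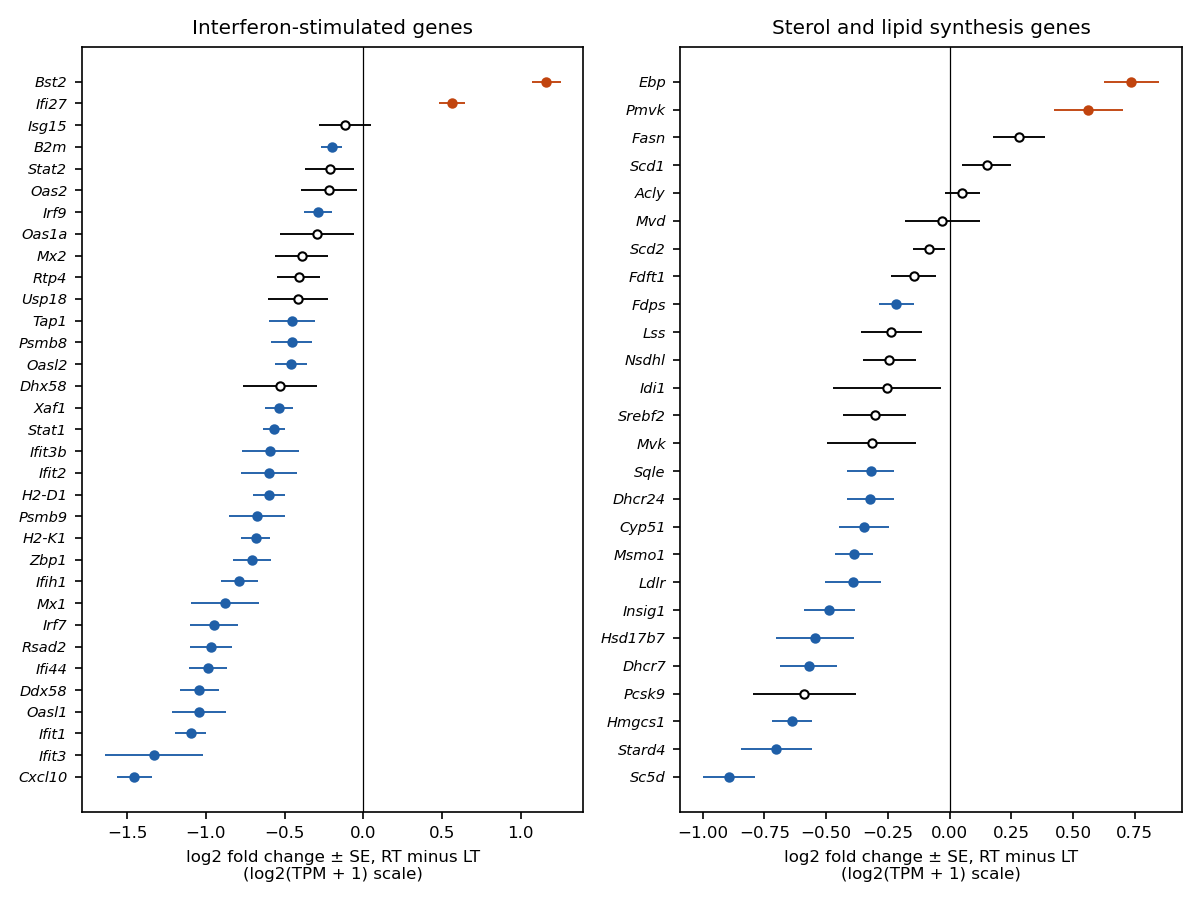
The log2 fold change of RT minus LT (horizontal axis, log2(TPM + 1) scale) with limma's SE as bars, for 33 interferon-stimulated genes on the left and 26 of the 27 measured sterol and lipid genes on the right (1 of the 13 lower genes is not shown); filled points passed the test and open points did not. The 23 and 12 blue points lie left of 0, and Bst2 and Ifi27 on the left panel and Ebp and Pmvk on the right panel are the orange points to the right of it.

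Cell cycle and p53 genes showed no common shift. Cdkn1a, the p53-induced inhibitor p21, had 38.3 and 40.6 TPM in RT, 71.2 and 76.0 in ST, 39.9 and 39.0 in PGC-1dMeioLC and 58.6 and 53.9 in LT libraries. RT was the lower in both tests, by 0.50 against LT (adjusted p = 0.00054) and by 0.88 against ST (7e-06). Btg2, an antiproliferative p53 target that is also an immediate early gene, was lower than in LT (-0.85 ± 0.11, adjusted p = 0.00056). Mdm2, the inhibitor of p53, was at 17.3 and 15.3 TPM in RT and 17.1 and 16.5 in LT libraries (adjusted p = 0.76). Of 25 measured p53 targets 3 rose and 4 fell, with a median of 0.00, and the 3 that rose became 0 without RT replicate 1, without LT replicate 2 or in the 4 libraries alone, and 6 after quantile normalization. Of 33 proliferation genes 6 rose (18.2%, against 8.14%) and 4 fell (12.1%, against 17.0%), with a median of 0.01. For the measured CDK inhibitors the shares were 16.7% higher and 50.0% lower. Mki67 was at 15.8 and 12.3 TPM in RT and 16.8 and 17 in LT libraries (-0.26, adjusted p = 0.12), and passed without RT replicate 1 (0.027). The 6 higher proliferation genes became 3 without either RT library and 2 without either LT library or in the 4 libraries alone, and the 4 lower became 2 without RT replicate 2 and 1 without either LT library or in the 4 libraries alone. Of 6 measured CDK inhibitors 1 rose (0 without RT replicate 1 or LT replicate 2) and 3 fell.

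Stress, growth-factor and metabolic genes moved in different directions. Of the measured immediate early genes 42.9% fell and 4.76% rose, against 17.0% and 8.14% of all genes tested. Of 21 measured immediate early genes 9 fell and 1 rose, with a median of -0.44 (the 1 higher gene lost its call without RT replicate 2, LT replicate 1 or LT replicate 2). Fos, a subunit of AP-1, had 35.2 and 35.1 TPM in RT, 39.1 and 40.2 in ST and 60.8 and 62.3 in LT libraries (-0.79 ± 0.16, adjusted p = 0.0052). Its relatives Fosb (-0.97 ± 0.17) and Fosl2 (-0.99 ± 0.14) and the phosphatase Dusp2 (-1.44 ± 0.21) were lower too. Of 23 genes of the integrated stress and unfolded protein responses 9 rose (39.1%, against 8.14%) and 3 fell (13.0%, against 17.0%). Their median was 0.28. Chac1, which degrades glutathione, had 13.1 and 15.0 TPM in RT, 16.7 and 16.5 in ST and 6.75 and 5.37 in LT libraries (1.09 ± 0.18, adjusted p = 0.0021). Asns, asparagine synthetase, had 174 and 158 TPM in RT, 99.8 and 107 in ST and 104 and 98.0 in LT libraries (0.71 ± 0.08, adjusted p = 0.00025), and the serine synthesis enzyme Phgdh changed by 0.63 ± 0.08. Of 28 glycolysis and hypoxia genes 7 rose (25.0%, against 8.14%) and 1 fell (3.57%, against 17.0%), with a median of 0.10. The glucose transporter Slc2a3 had 27.9 and 28.8 TPM in RT, 26.3 and 27.3 in ST and 11.1 and 11.1 in LT libraries (1.28 ± 0.07, adjusted p = 2.5e-06). Slc2a1 changed by 0.73 ± 0.08, and the gene that fell was Vegfa, at -0.54 ± 0.10 (adjusted p = 0.0047). The 9 higher stress genes became 4 without either RT library, 5 without LT replicate 2 or in the 4 libraries alone and 6 without LT replicate 1. The 7 higher glycolysis genes became 4 without RT replicate 2, LT replicate 1 or LT replicate 2 or in the 4 libraries alone.

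Markers of other cells that the sorted fraction could hold were measured in every library. The 26 gonadal somatic markers summed to 425 and 430.0 TPM in RT libraries, 601 and 605 TPM in ST libraries, 576 and 548 TPM in PGC-1dMeioLC libraries and 529 and 541 TPM in LT libraries. Amh, the Sertoli and granulosa cell hormone, was listed at 0 in 1 of 2 RT libraries and in both LT libraries. Of the 23 that passed the filter, 11 fell (47.8%, against 17.0% of all genes tested) and 1 rose (0 rose with any 1 library left out), with a median of -0.33. Germ cell, interferon and sterol lists had medians in the same direction. The part of these markers in those results was not tested. Upk3b, a mesothelial gene, had 0.443 and 0.586 TPM in RT and 2.23 and 2.49 in LT libraries (-1.15 ± 0.18, adjusted p = 0.0013). It entered the comparison through the LT libraries alone, which already required a difference. Nr2f2, a factor of interstitial cells, had 77.4 and 76.2 TPM in RT and 121 and 121 in LT libraries (-0.65 ± 0.10, adjusted p = 0.0012). The 11 lower markers became 6 and 7 without RT replicate 1 and RT replicate 2, 5 and 4 without LT replicate 1 and LT replicate 2, and 5 at a pseudocount of 0.1. The 25 stroma and fibroblast markers summed to 3677 and 3730 TPM in RT libraries and 3745 and 3895 TPM in LT libraries. Of 24 that passed the filter, 4 rose (16.7%, against 8.14% of all genes tested) and 2 fell (8.33%, against 17.0%). The 4 became 1 without RT replicate 2 or LT replicate 2 and 2 without RT replicate 1 or LT replicate 1, and the 2 became 1 without LT replicate 2. Macrophage and blood markers without the globins summed to 339 and 334 TPM in RT libraries and 323 and 316 TPM in LT libraries, and with the globins to 1588 and 1574 TPM in RT libraries and 2237 and 2325 TPM in LT libraries. Endothelial markers summed to 25.7 and 27.2 TPM in RT libraries and 27.8 and 28.0 TPM in LT libraries. Endoderm markers summed to 264 and 269.9 TPM in RT libraries and 382 and 378 TPM in LT libraries. Of 17 that passed the filter, 7 were lower (41.2%, against 17.0%) and 2 higher (11.8%, against 8.14%). At a pseudocount of 0.1, 4 were lower.

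**Figure D5:**
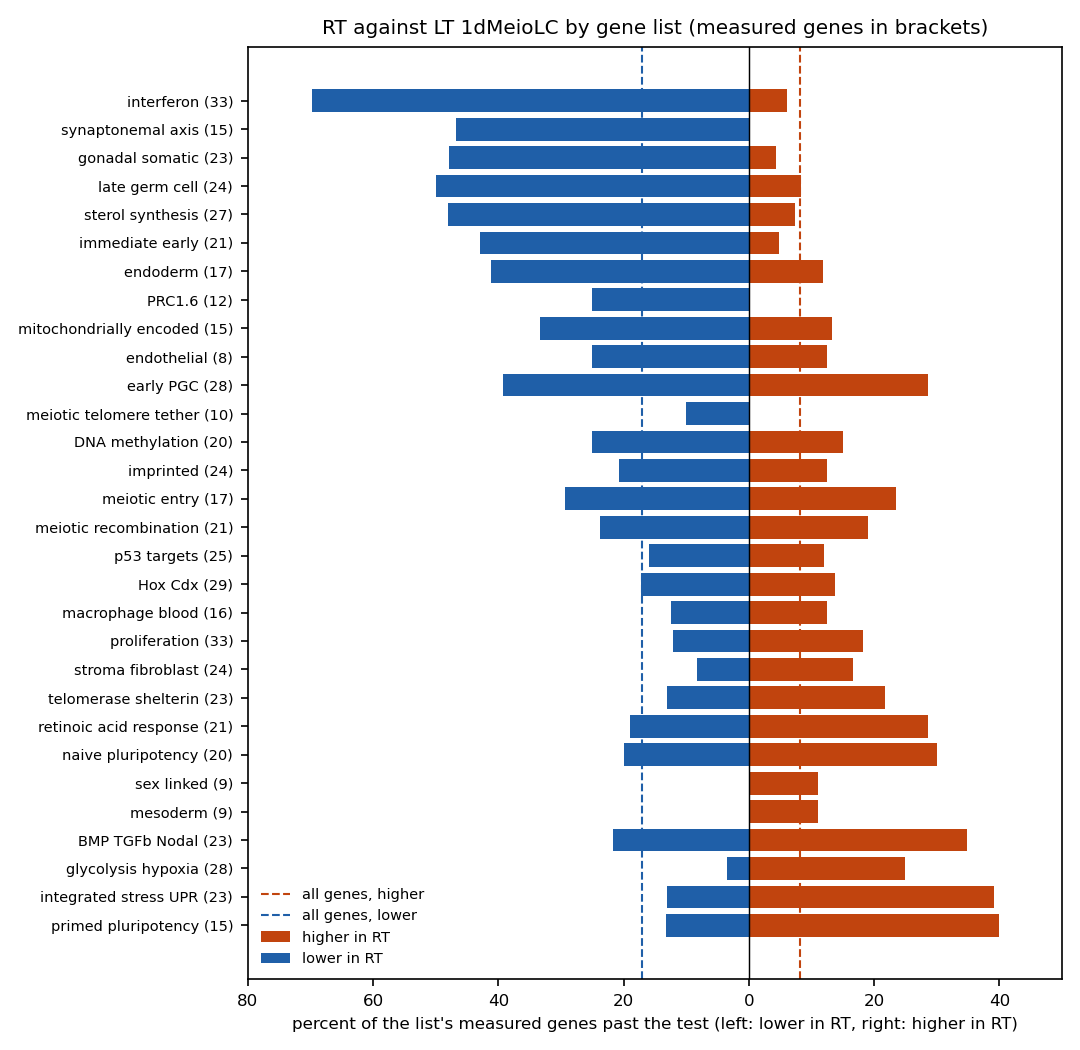
For each gene list with at least 8 measured genes (their number in brackets), without the lists assembled after the values were seen, the bar to the left is the percent of those genes that were lower in RT than in LT and the bar to the right the percent that were higher. Dashed lines mark the same percents over all 16860 genes, 17.0 to the left and 8.14 to the right; the interferon list reaches 69.7 on the left and the primed pluripotency list 40.0 on the right.

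Several of the genes that increased most in RT were also high in ST libraries. Obox6, of an oocyte homeobox family, had 11.8 and 11 TPM in RT, 17.7 and 13.8 in ST and 0.333 and 0.485 in LT libraries (3.14 ± 0.14, adjusted p = 1e-06). It entered the comparison through the RT libraries alone, which already required a difference from LT. Crygc, a lens crystallin gene, had 48.7 and 47.8 TPM in RT, 36.9 and 34.4 in ST and 7.48 and 6.22 in LT libraries (2.66 ± 0.24, adjusted p = 5.8e-05). Gc, the vitamin D-binding protein, had 16.8 and 18.3 TPM in RT, 19.8 and 18.9 in ST and 2.75 and 1.94 in LT libraries (2.48 ± 0.15, adjusted p = 5.9e-06), and Cidea, a lipid droplet protein, was at 2.23 ± 0.18 (adjusted p = 3.4e-05). The rule that named these 4 genes required both RT libraries to lie above both LT libraries. Both ST libraries also lay above them, but the genes were chosen partly for low values in these same LT libraries. Platr5, a noncoding RNA of pluripotent cells, was above every ST and LT library in both RT libraries, with 10.0 and 16.5 TPM in RT, 1.54 and 1.03 in ST and 1.22 and 2.85 in LT libraries (2.25 ± 0.28, adjusted p = 0.00044). At the other end, Fbxl18, an F-box gene, had 0.867 and 1.21 TPM in RT, 1.70 and 5.70 in ST and 21.2 and 20.6 in LT libraries (-3.43 ± 0.38, adjusted p = 0.00021). Fabp9, the testis lipid-binding protein, had 3.21 and 1.37 TPM in RT libraries, was listed at 0 in both ST libraries and had 9.28 and 13 in LT libraries (-1.90 ± 0.31, adjusted p = 0.0019).

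Of 12 measured subunits and partners of PRC1.6, a complex that silences germline genes, 3 fell (25.0%, against 17.0% of all genes tested). Of the same genes 0 rose (0 also at an unadjusted p under 0.05 in limma). The 3 became 1 without RT replicate 1, RT replicate 2 or LT replicate 2 and in the 4 libraries alone. For the mitochondrially encoded genes the shares were 13.3% higher and 33.3% lower, against 8.14% and 17.0% of all genes tested. Of 20 DNA methylation genes 3 rose (15.0%, against 8.14%) and 5 fell (25.0%, against 17.0%). The 3 became 1 without RT replicate 1, RT replicate 2 or LT replicate 1 and in the 4 libraries alone, and the 5 became 3 without RT replicate 1 and 2 without either LT library. Of 15 mitochondrially encoded genes 2 rose (1 without RT replicate 1, LT replicate 1 or LT replicate 2) and 5 fell (3 without RT replicate 2, LT replicate 1 or LT replicate 2). The 9 mesoderm genes held 1 that rose, and 0 without any 1 of the 4 libraries (Brachyury, or T, was below the filter, with 0.675 and 0.639 TPM in RT libraries and 0 listed in both LT libraries). The 5 neural genes held 1 in each direction (2 higher without RT replicate 1), and the 9 sex-linked genes held 1 that rose (0 without RT replicate 1 or LT replicate 2). Among 61 replication-dependent histone genes, a list assembled after the values were seen, 9 rose (14.8%, against 8.14%) with a median of 0.39. In that list 0 fell (against 17.0%, and 0 also at an unadjusted p under 0.05 in limma). The 9 became 4 without RT replicate 2, 2 without LT replicate 2 and 5 at a pseudocount of 0.1 or without the filter on low values. Of 189 snoRNA records 13 rose (6.88%, against 8.14% of all genes tested) and 23 fell (12.2%, against 17.0%). The 13 became 8 without RT replicate 2 and 7 without LT replicate 2, and the 23 became 10 without either LT library.

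The most abundant transcripts that changed at least 2-fold included Rpph1, the RNA of RNase P, with 3332 and 3799 TPM in RT, 877 and 822 in ST and 1237 and 1267 in LT libraries (1.51 ± 0.16, adjusted p = 0.00016). Sdc4, the heparan sulfate proteoglycan syndecan-4, had 534 and 533 TPM in RT, 1244 and 1243 in ST and 1129.8 and 1117 in LT libraries (-1.07 ± 0.05, adjusted p = 1.7e-06). Pdcd4, an inhibitor of translation, had 301 and 282 TPM in RT, 402 and 383 in ST and 692 and 654 in LT libraries (-1.21 ± 0.06, adjusted p = 2.2e-06). RT was thus above both groups for Rpph1 and below both for Sdc4 and Pdcd4. The ribosomal protein genes Rps2 (1.21 ± 0.06) and Rps18 (1.34 ± 0.08) were higher. In a list of 75 cytosolic ribosomal protein genes, assembled after the values were seen, 22 rose (29.3%) and 5 fell (6.67%). Over all genes tested 8.14% rose and 17.0% fell. The list's median was 0.04. Without LT replicate 1, 14 rose, without LT replicate 2, 3 fell, and with nuclear protein-coding totals set equal 8 fell. Such genes have many processed copies, so their levels are uncertain. Igf2r, the imprinted receptor that clears Igf2, had 25.9 and 26.4 TPM in RT, 51.2 and 49.9 in ST and 63.6 and 64.8 in LT libraries (-1.26 ± 0.08, adjusted p = 4.8e-06). Igf2 changed by -0.46 ± 0.09. Among the measured imprinted genes 20.8% fell, against 17.0% of all genes tested, and the share that rose was above the 8.14% of all genes tested. Of 24 measured imprinted genes 3 rose (1 without RT replicate 1 or LT replicate 2) and 5 fell.

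Records of miRNA genes made up 8 of the 24 largest changes (the 12 highest and 12 lowest by the rule for named genes). They made up 276 of the 16860 genes tested. Mature sequences are printed for the 4 of these with 1 mature form in the table, which include the 2 lowest, from RefSeq on GRCm38.p6, with the seed (bases 2 to 8) in capitals; no seed was shared among the 12 mature forms of the 8 genes. A record of this kind sums RNA over a hairpin, and mature miRNA was not measured. Mir484 was listed at 0 in both RT libraries and at 7.43 and 19.4 in LT libraries (adjusted p = 0.0026), and Mir7669 was listed at 0 in both RT libraries and at 11.2 and 11.2 in LT libraries (0.002). Both records entered the comparison through the LT libraries alone, which already required a difference. Mir6935 was at 16.3 and 13.9 TPM in RT libraries and 0.778 and 0 TPM in LT libraries (adjusted p = 0.015), and Mir1896 at 12.9 and 7.30 TPM in RT libraries and 1.23 and 0 TPM in LT libraries (0.0096). For Mir6935 entry came through the RT libraries alone. Mir6935 lost its call without RT replicate 1 (0.065), RT replicate 2 (0.058) or LT replicate 2 (0.096), and Mir1896 without RT replicate 1 (0.062) or LT replicate 2 (0.083). Over the 276 miRNA records that passed the filter, 32 rose (11.6%, against 8.14% of all genes tested) and 29 fell (a share below the 17.0% of all genes tested). The 32 and 29 became 13 and 12 without LT replicate 2, 18 and 18 without RT replicate 2, 19 higher without RT replicate 1 and 19 lower without LT replicate 1.
mmu-miR-484: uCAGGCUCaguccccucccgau
mmu-miR-7669-5p: aGUACCACcauacacagcuuuug
mmu-miR-6935-3p: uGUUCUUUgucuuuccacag
mmu-miR-1896: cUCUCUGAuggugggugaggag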

How the data were processed

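RNA was sequenced from total RNA, with NEBNext Ultra libraries per the labels' protocols. The authors deposited TPM values, with 53564 gene symbols in the table and each column summing to 1000000. Bowtie2, HISAT2, RSEM, R 3.4.2, DESeq2 and the build mm10 are named in the submitters' processing notes, with no role or order. TPM keep no read totals, which makes depth unknown here and leaves no counting interval to give. Columns were matched to samples by name: 16 of them fitted 1 sample each, and 12 columns, which carry 6 EpiLC names more than once, were not used.

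Genes with at least 1 TPM in 2 or more of the 4 RT and LT 1dMeioLC libraries were tested with limma 3.58.1 in R 4.3.3 (trended empirical Bayes) on log2(TPM + 1). The pseudocount of 1 makes fold changes of low genes too small. The fit held 16 libraries in 8 groups of 2, with 8 residual and 2.5 prior degrees of freedom and no block. P-values were adjusted over all 16860 genes by Benjamini-Hochberg, and calls were made under 0.05. The code was tested on simulated data.

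Genes were named by these rules: a set of anchor genes; of each list up to 6 called members with the largest change; the 12 highest and 12 lowest called genes whose higher group averaged 10 TPM or more and whose libraries did not overlap; and the 8 most abundant genes called with at least a 2-fold change. The genes compared, the lists and the rules were chosen with earlier results of these data known. Pmvk, Ifi27, Tex19.1, Rpl10l and other genes outside these rules were named after their values were seen. Promoters, 250 bases before each start, and mature miRNAs came from RefSeq, GRCm38.p6. Alternatives changed the pseudocount, the filter, the scaling, the libraries that set the spread, the block and the libraries included. Some genes that entered the fit and the counts are not reported here by name.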

Additional observations from a re-analysis of the deposited data

Results flagged for a closer look

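For 22 anchor genes the RT minus LT difference after the meiotic culture was set against the same difference 1 day into PGC-like induction (1dEB, embryoid bodies), by the interaction term of the limma fit. At an adjusted p under 0.05 it differed for 8 of the 22, a share below the 39.9% found over all 16860 genes. The count therefore does not set the anchor genes apart. Cdkn1a differed by -2.35 (adjusted p = 9.6e-08), with RT minus LT at -0.50 after meiotic culture and 1.85 at 1dEB. Mdm2 differed by -1.10 (-0.04 and 1.06), Nanos3 by -1.17 (0.25 and 1.42) and Prdm1 by -0.62 (-0.85 and -0.22). Nanog differed by 2.12 (0.80 and -1.32), Pou5f1 by 0.90 (0.56 and -0.34), Sox2 by 0.66 (0.34 and -0.33) and Dppa3 by 0.55 (-0.61 and -1.16). With nuclear protein-coding totals set equal, 11 passed and 5 passed in both: Cdkn1a at -2.82, Mdm2 at -1.57, Nanos3 at -1.66, Prdm1 at -0.83 and Nanog at 1.67. Pou5f1, Sox2 and Dppa3 then did not pass, at 0.41, 0.20 and 0.11. Terc (-1.79), Tfap2c (-0.86), Dazl (-0.62), Stra8 (-0.79), Rec8 (-0.67) and Sycp1 (-0.81) passed only with these totals set equal. The share over all genes was not counted for that scaling.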

How the results depend on the processing

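The 4233 calls between RT and LT became 2117 in a fit of the 4 libraries alone (841 higher, 1276 lower) and 1952 to 2845 when 1 library was left out (693 to 963 higher, 1259 to 1939 lower), the fewest without LT replicate 2; such fits have fewer libraries, and a lone library is then assumed to vary like the other groups. At a filter of 5 TPM, which tests fewer genes, 4360 genes differed between RT and ST and 4462 between ST and LT. The 242 calls summed over the lists became 161 in the 4 libraries alone and 137 to 173 without 1 library. Mdm2 and Tert, which passed in no setting, turned sign: Mdm2 to 0.05 after quantile normalization and -0.13 to 0.04 without 1 library (0.04 without RT replicate 2), and Tert to 0.00 after quantile normalization and -0.25 to 0.01 without 1 library (0.01 without RT replicate 2 or LT replicate 2). Of 93 called genes named, 69 kept their call in every alternative that tested them, which was 15, or 14 for genes under the filter of 5 TPM. Same-numbered RT and LT libraries had a correlation of deviations across genes of 0.0279. With 2 libraries a group this cannot show whether same-numbered libraries were handled together. With a replicate block 4072 genes were called, 3944 of them in both fits.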

Other observations

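Over protein-coding genes with a mean of at least 5 TPM in the 4 libraries, the median log2 fold change of RT minus LT lay between -0.17 on chromosome 16 and -0.01 on chromosome 11.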
